A study of Drosophila melanogaster with 4 samples.

Results

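The Bithorax complex is the stretch of chromosome arm 3R that holds the Hox genes Ubx, abd-A and Abd-B of Drosophila melanogaster. The regions described here are all GAGA factor (GAF) regions with a score above 0 that overlap 3R from 12470000 to 12820000 on FlyBase release 5. The edges of this window of 350 kb were set by position, but it was chosen with earlier results of these data known. The authors' combined list held 33 such regions of its 6474, the list of ChIP replicate 1 held 27 of 5694 and that of replicate 2 held 29 of 5709. These regions are called clusters below, after the authors' name for the lists.

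GAF, the product of the gene Trl, was mapped by ChIP-seq, the sequencing of DNA that comes down with an antibody against the protein, in embryos 14 to 16 hours old of the strain Oregon-R, whose genotype is given as wild type; no treatment is named for any group. There were 2 GAF ChIP libraries and 2 input libraries, the latter being chromatin sequenced without immunoprecipitation; only region lists of the ChIP libraries were analysed here. The libraries came from whole embryos, so a score averages over segments in which each Hox gene is on and segments in which it is off. The labels do not say that the replicates were separate embryo collections, and the spread between them may therefore be technical.

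Ubx, abd-A and Abd-B encode homeodomain proteins that give segment identity from the posterior thorax to the end of the abdomen, and they lie on the chromosome in the order of the segments they specify. Each is governed by long cis-regulatory domains named for mutant phenotypes: abx and bx lie within Ubx, bxd and pbx upstream of it, and the series of iab domains from abd-A to Abd-B. These domains contain enhancers, boundary elements and Polycomb response elements (PREs), DNA that recruits Polycomb group repressors. GAF binds GA-rich DNA, is needed for the activity of several Hox PREs and boundaries, and has long been studied as an activator of the Ubx promoter. All 3 genes are read toward lower coordinates, so the promoter of the longest transcript lies at the higher end of each span. The gene spans used were approximate, and no PRE, boundary or promoter is annotated in the lists; no cluster was assigned to such an element. No sequence is printed, since none of the genome build of these lists was used here.

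**Figure D1:**
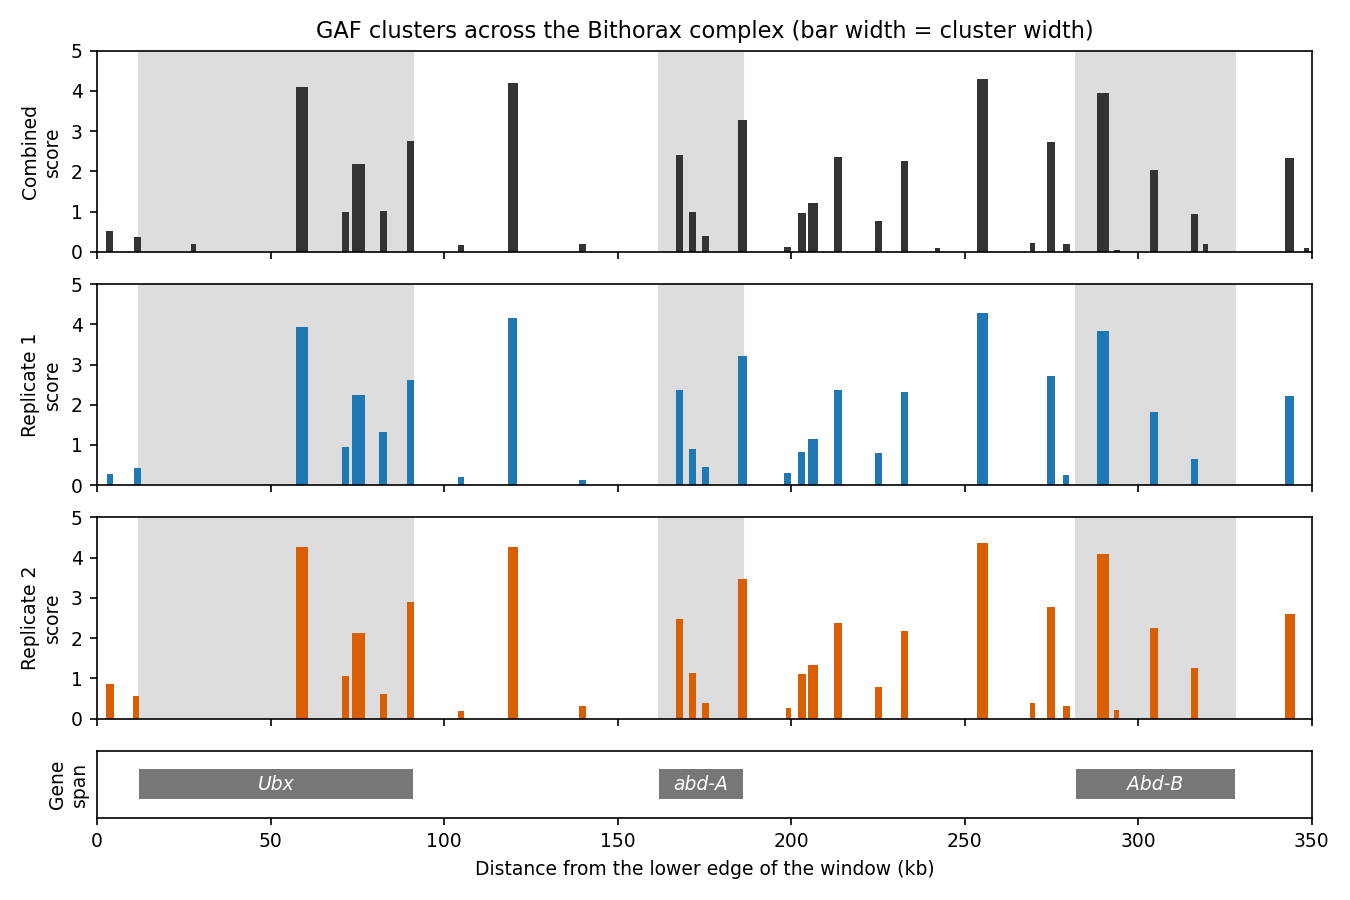
Position, width and score of GAF clusters over the 350 kb window, with distance from its lower edge in kb on the horizontal axis and the authors' score on the vertical axis, for the combined list and both replicates. Shaded bands and dark bars mark the approximate spans of Ubx, abd-A and Abd-B. The 5 tallest bars have combined scores of 3.28 to 4.31 and stand at the same places in both replicates. By midpoint they stand 1 each in Ubx, between Ubx and abd-A, in abd-A, between abd-A and Abd-B, and in Abd-B. The abd-A bar crosses the approximate upper edge of that gene.

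The 5 strongest GAF clusters of the complex lay between 12527347 in Ubx and 12761679 in Abd-B. The lower part of the Ubx span and the upper part of the Abd-B span held none of them. Each scored above 3.14, the limit of the top 10% of all combined clusters. By midpoint, each of the 3 genes and both stretches between them held exactly 1. The one assigned to abd-A crosses the approximate upper edge of that gene, so its segment depends on where the edge is set. Clusters above that limit made up 5 of 33 in the window (15.2%, exact binomial 95% interval 5.11 to 31.9%), against a background of 10% by definition. The interval includes the background share. It is wide at this number of clusters and treats neighbouring clusters as independent. The replicates had 4 of 27 and 5 of 29 clusters above the same limit of their own lists, against 10% in each.

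The highest score belonged to a cluster in the stretch between abd-A and Abd-B, the region of the iab domains. It ran from 12723599 to 12726789 and scored 4.31 in the combined list, 4.29 in replicate 1 and 4.37 in replicate 2, a mean of 4.33 ± 0.0581 (SD, n = 2). It ranked 36 of 6474 combined clusters. It ended 25.2 kb below the approximate lower edge of Abd-B.

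The second lay between Ubx and abd-A, in the region of the bxd and pbx domains, from 12588294 to 12591156. It scored 4.20 in the combined list, 4.16 in replicate 1 and 4.27 in replicate 2 (mean 4.22 ± 0.0733, n = 2), and ranked 53. It scored below the first cluster in both replicates. The means of these leading clusters differed by less than 0.200, the spread of a single cluster of the window between replicates (within-cluster SD over 27 pairs). With 2 replicates, their order is therefore not resolved.

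The third lay inside the Ubx span, from 12527347 to 12530745, 30.3 kb below its higher end. Its scores were 4.09 in the combined list, 3.93 in replicate 1 and 4.27 in replicate 2 (mean 4.10 ± 0.242, n = 2). In Abd-B, the strongest cluster ran from 12758002 to 12761679, near the lower end of the span, and scored 3.94 in the combined list, 3.83 in replicate 1 and 4.10 in replicate 2 (mean 3.96 ± 0.193, n = 2). It was also the widest cluster of the window, at 3678 bp.

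The fifth stood at the promoter end of abd-A. It ran from 12654612 to 12657260, across the approximate upper edge of the gene at 12656000, and scored 3.28 in the combined list, 3.20 in replicate 1 and 3.47 in replicate 2 (mean 3.33 ± 0.185, n = 2). Its mean lay below those of the 4 others by more than the within-cluster SD. In replicate 1 it fell just outside the top 10%, at percentile 88.9.

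The midpoints of these 5 clusters were 60.7, 66.2, 69.3 and 34.6 kb apart in chromosome order. The first 3 of these distances were alike and the last was shorter. Between neighbouring strong clusters lay weaker ones in every interval.

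Ubx, the Hox gene of the third thoracic and first abdominal segments, held 6 combined clusters by midpoint over 79.0 kb, 5 of them in both replicates. They gathered in the upper part of the span. From 12482561 to 12527376 replicate 1 had no cluster, and replicate 2 had none from 12482125 to 12527340, a gap of 44.8 and 45.2 kb that ranked at percentiles 88.8 and 89.3 of all gaps on the 5 large arms. In the combined list a single weak cluster fell there, from 12496981 to 12498610, with a score of 0.206 and no counterpart in either replicate.

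Beyond that gap, Ubx carried a row of clusters up to its promoter end. After the strong cluster at 12527347 came 1 from 12540530 to 12542656, which scored 0.996 combined, 0.956 in replicate 1 and 1.06 in replicate 2. Another 0.788 kb further, a broad cluster from 12543445 to 12547087 spanned 3643 bp and scored 2.18 combined, 2.24 in replicate 1 and 2.13 in replicate 2. The next, from 12551359 to 12553460, scored 1.02 combined but 1.32 in replicate 1 and 0.620 in replicate 2, the largest disagreement in the window, beyond 97.5% of all paired clusters of the genome.

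The promoter end of Ubx was marked by a cluster from 12559166 to 12561403, across the approximate upper edge of the gene at 12561000. It scored 2.76 combined, 2.63 in replicate 1 and 2.90 in replicate 2 (mean 2.76 ± 0.192, n = 2). Its start differed by 3 bp and its end by 16 bp between the replicates. It scored below the promoter-end cluster of abd-A in both replicates, by more than the within-cluster SD.

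The stretch from Ubx to abd-A had the fewest clusters for its length of the 7 segments. In release 6 of the RefSeq annotation it holds the long non-coding RNA lncRNA:bxd, the protein-coding genes CG31275 and Glut3, a glucose transporter by its name, and 3 further long non-coding RNAs. Over 71.0 kb it had 3 clusters in every list and 10.1% of its length covered in the combined list, 9.88% in replicate 1 and 10.0% in replicate 2. Apart from the strong cluster at 12588294, these were weak: 1 from 12573860 to 12575820 scored 0.182 combined, 0.199 in replicate 1 and 0.186 in replicate 2, and 1 from 12608955 to 12610904 scored 0.194, 0.130 and 0.310. The strong cluster had 12.5 kb without a combined cluster on its lower side and 17.8 kb on its upper side, shorter than the longest gap in Ubx, at 28.7 kb in the combined list.

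The abd-A gene, which acts in most abdominal segments, had the densest covering of the gene spans. Its 24.0 kb held 4 clusters in every list, and 32.4% was covered in the combined list, with 31.9% and 32.0% in the replicates. Away from its promoter end, a cluster near the lower end, from 12636660 to 12638934, scored 2.41 combined, 2.37 in replicate 1 and 2.46 in replicate 2. The other 2 were weaker, at 12640517 to 12642611 (1.00 combined, 0.890 in replicate 1, 1.14 in replicate 2) and 12644263 to 12646270 (0.384, 0.442 and 0.394).

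The stretch from abd-A to Abd-B, 96.0 kb long, held the most clusters of any segment, 11 in the combined list, 9 in replicate 1 and 10 in replicate 2. It contains the non-coding RNAs lncRNA:iab8 and lncRNA:iab4 and the microRNA genes mir-iab-4 and mir-iab-8, whose products are known to act on Hox transcripts. Coverage was 26.3% combined and 23.3% ± 0.861 in the replicates (n = 2). This was higher than in the stretch from Ubx to abd-A, at 9.95% ± 0.0886, by far more than the spread between replicates. That spread shows how alike the replicate lists are at the same sites, not how coverage varies between stretches of this length. No test was made, since an exact paired test over 2 replicates cannot give a two-sided p below 0.5.

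Several clusters of middling score lay in it. The one from 12743742 to 12746013, nearest to Abd-B among the stronger ones, scored 2.74 combined, 2.72 in replicate 1 and 2.77 in replicate 2. The one from 12682319 to 12684679 scored 2.35, 2.35 and 2.38, and the one from 12701503 to 12703706 scored 2.25, 2.31 and 2.18. The differences of these 3 (replicate 2 minus replicate 1) ran from -0.131 to 0.0466. A close pair near abd-A, from 12671971 to 12674137 and from 12674832 to 12677722, was separated by 0.694 kb and scored 0.957 and 1.22 combined, with 0.834 and 1.14 in replicate 1 and 1.11 and 1.33 in replicate 2.

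The 5 other clusters of this stretch scored under 0.8. The one from 12694138 to 12696266 was the strongest of them and reached 0.777 combined, 0.801 in replicate 1 and 0.785 in replicate 2. The one from 12667924 to 12669864 scored 0.110 combined, below its 0.294 and 0.263 in the replicates. The one from 12748365 to 12750234 scored 0.187 combined, 0.246 in replicate 1 and 0.317 in replicate 2. The one from 12738808 to 12740289 scored 0.213 combined and 0.383 in replicate 2 and was not in replicate 1. The one from 12711529 to 12712981 scored 0.0963 and was in neither replicate.

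Abd-B, the Hox gene of the most posterior abdominal segments, is transcribed from several promoters spread along its span. Its 46.0 kb held 5 combined clusters, but 3 in replicate 1 and 4 in replicate 2. Among its 3 clusters found in both replicates, scores were lower toward the higher end: after the strong cluster near the lower end came 2.04 combined at 12773393 to 12775617 (1.82 in replicate 1 and 2.26 in replicate 2), then 0.938 at 12785116 to 12787313 (0.649 and 1.25). Unlike at Ubx and abd-A, no cluster touched the approximate upper edge of Abd-B. The nearest lay 7972 bp below it, from 12788803 to 12790028, with a combined score of 0.202, a width of 1226 bp and no counterpart in either replicate. The cluster from 12763107 to 12764837 was the weakest of the window, with a score of 0.0390 combined and 0.222 in replicate 2, and was not in replicate 1.

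The outer flanks held 4 clusters. Below Ubx, where modSP, a serine protease gene, is the nearest coding gene in release 6, 2 weak clusters scored 0.510 and 0.361 combined. The first, from 12472620 to 12474705, scored 0.285 in replicate 1 and 0.859 in replicate 2. The second, from 12480471 to 12482498, crossed the lower edge of Ubx and scored 0.435 in replicate 1 and 0.572 in replicate 2. Above Abd-B, a cluster from 12812382 to 12814953 scored 2.35 combined, 2.22 in replicate 1 and 2.59 in replicate 2, and the one from 12817796 to 12819173 scored 0.0910 and was in neither replicate. In release 6 the first coding genes above Abd-B are VhaM9.7-d, Actn3 and AhcyL2.

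**Figure D2:**
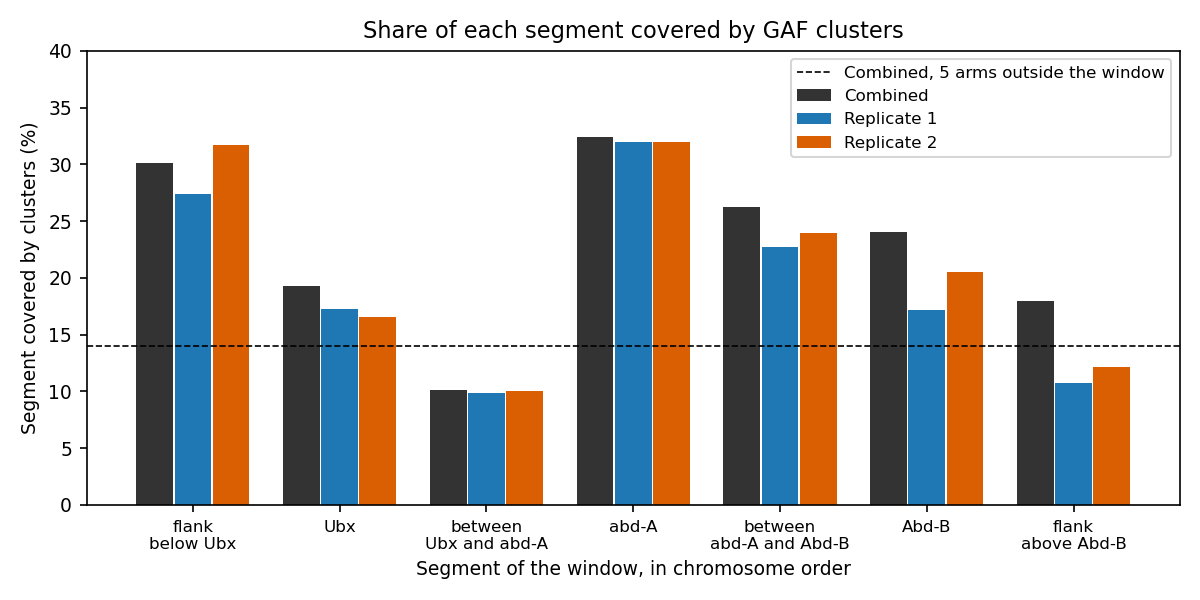
Share of each of 7 segments of the window covered by clusters, in percent, in the combined list and in each replicate; the dashed line is the combined share on the 5 large arms outside the window. Coverage runs from 10.1% between Ubx and abd-A to 32.4% in abd-A in the combined list, and the line stands at 14.0%.

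Inside the 3 gene spans together there were 15 combined clusters over 149 kb, and between the genes 14 over 167 kb, or 10.1 and 8.38 per 100 kb. In replicate 1 these densities were 8.05 and 7.19 and in replicate 2 they were 8.72 and 7.78. The single segments did not follow this order: the stretch from abd-A to Abd-B had 11.5 clusters per 100 kb in the combined list, 9.38 in replicate 1 and 10.4 in replicate 2, against 7.59, 6.33 and 6.33 in Ubx and 10.9, 6.52 and 8.70 in Abd-B. The abd-A gene, with 4 clusters, had 16.7 in every list, and so did the short flank below Ubx, with 2. The outer flanks together had 11.8, 8.82 and 8.82. The median score was 1.02 in genes and 0.867 between them in the combined list, 2.03 and 0.988 in replicate 1, and 2.13 and 1.11 in replicate 2. The higher medians of the replicates inside genes came with fewer weak clusters there, 12 and 13 clusters in all against 15.

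The replicates found nearly the same clusters in the complex. All 27 clusters of replicate 1 overlapped 1 of replicate 2 (exact interval 87.2 to 100%), against 92.3% over the whole list, and 27 of the 29 of replicate 2 overlapped 1 of replicate 1 (93.1%, exact interval 77.2 to 99.2%), against 91.7%. Both replicates had a cluster at 27 of the 33 combined clusters (81.8%, exact interval 64.5 to 93.0%), against 79.5% of the list. Another 2 were found in 1 replicate, which was replicate 2 each time, and 4 in neither, against 11.2% and 9.21% of the list. These shares lay near those of the list, and the intervals cover counting error only.

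Agreement followed the score. All 20 clusters of the window with a combined score of 0.6 or more were in both replicates, against 96.8% of such clusters in the list. Of the 13 below it, 7 were in both, 2 in replicate 2 and 4 in neither, against 48.7% in both over the list. The limit of 0.6 was set after the scores were seen, in a gap between 0.510 and 0.777. The 6 clusters not found in both replicates were 1226 to 1731 bp wide, and the 27 found in both were 1870 to 3678 bp wide. Width followed score across the 33 clusters (Spearman's rho 0.912), so this split is not separate from that by score. The widths of these groups were not compared over the whole list.

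**Figure D3:**
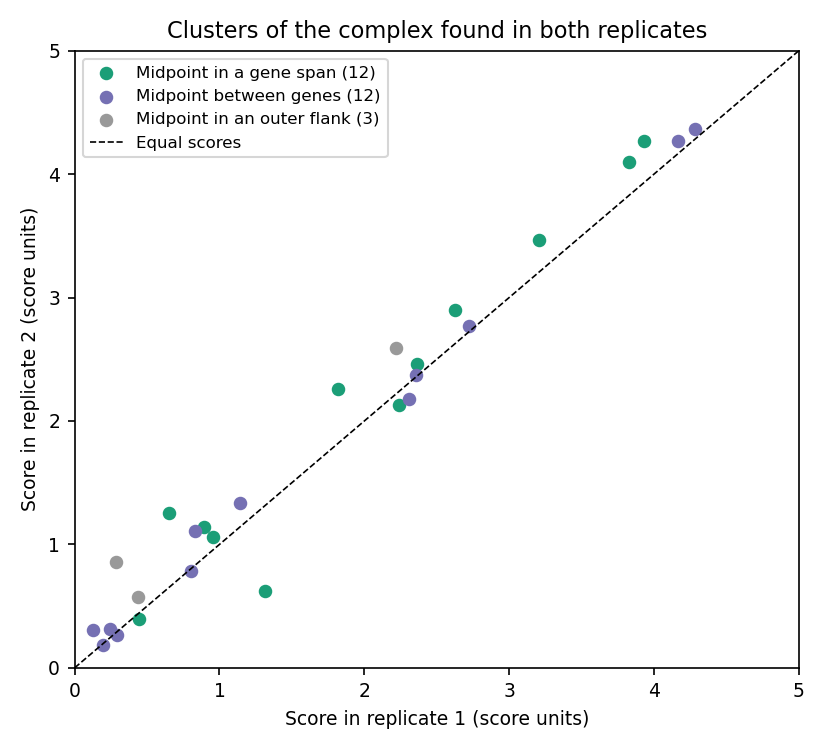
Scores in replicate 1 (horizontal) and replicate 2 (vertical) of the 27 clusters found in both, in the authors' score units, coloured by whether the midpoint lies in a gene span, between genes or in an outer flank; the dashed line marks equal scores. Points follow the line, with 20 of the 27 above it.

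Scores ranked alike in the replicates. Across the 27 paired clusters Spearman's rho was 0.951, given as a description across neighbouring clusters of the same libraries, and it was 0.958 over the 5082 pairs elsewhere. Replicate 2 scored higher at 20 of 27 pairs, against 58.0% over all pairs, with a median difference (replicate 2 minus replicate 1) of 0.106. The spread of a single cluster was 0.200 in the window and 0.199 elsewhere. After the Ubx cluster named above, the largest differences were 0.605 at 12785116 in Abd-B and 0.573 at 12472620 below Ubx. Cluster edges were close, with median offsets between replicates of 28 bp at the start and 21 bp at the end. The combined score lay below both replicate scores at 6 of the 27 clusters, against 23.4% over the list, and between them at the 21 others.

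Against the rest of the genome the window was rich in clusters. It held 9.43 combined clusters per 100 kb, against 5.10 on 3R outside it and 5.21 on the 5 large arms outside it. In the replicates the density was 8.00 ± 0.404 per 100 kb, against 4.59 ± 0.0590 on the rest of 3R (mean ± SD, n = 2). That spread shows how alike the replicate lists are, not how density varies between windows of this width. Clusters covered 21.1% of the window in the combined list and 18.6% ± 0.622 in the replicates, against 13.7% and 12.5% ± 0.192 on the rest of 3R.

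Set beside all windows of equal width, the complex stood high in number and ordinary in score. Of 338 windows laid end to end on the 5 large arms, the complex included, 3 held more combined clusters and 1 as many, and the median window held 18.5. In replicate 1, 9 windows held more and 5 as many, and in replicate 2, 3 held more and 3 as many. In covered length 43 windows exceeded it. In the number of top 10% clusters 13 did, and 15 others had as many. The median score of its clusters was 0.996, below the median of the windows at 1.11, and 202 windows were higher. These ranks describe the window; no test was made.

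**Figure D4:**
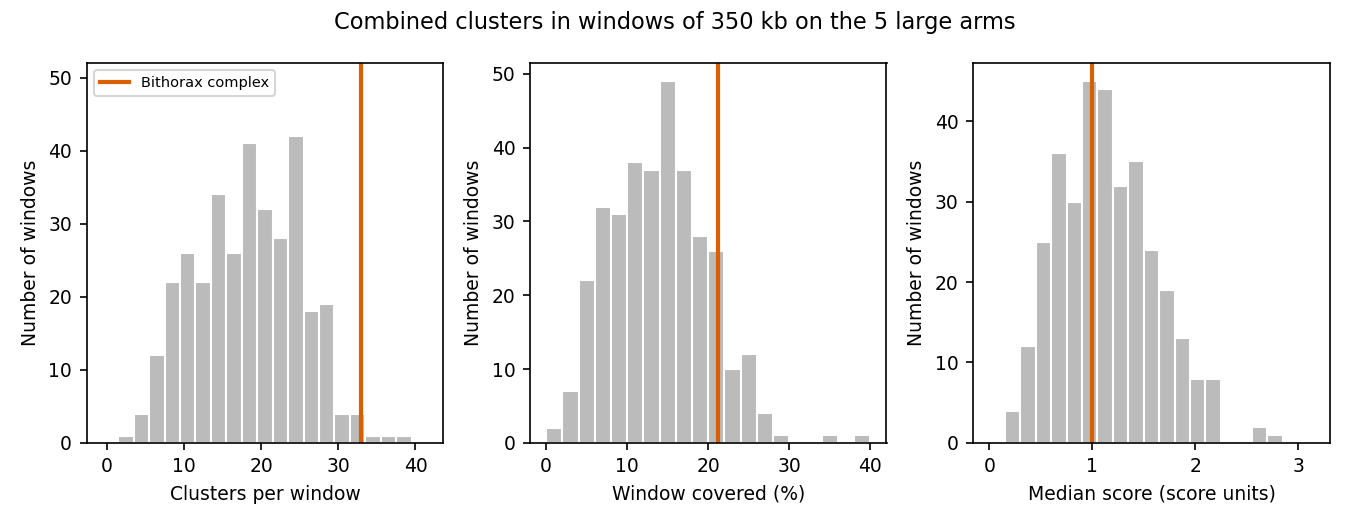
Distribution over 338 windows of 350 kb on the 5 large arms of the number of combined clusters, the share of the window covered in percent, and the median score; the orange line marks the Bithorax complex at 33 clusters, 21.1% and 0.996. The line stands near the upper end in number and close to the middle in median score.

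Clusters of the window came from the whole range of scores. It had 11 clusters in the top 25% of the list and 11 in the bottom 25%, a share of 33.3% each (exact interval 18.0 to 51.8%), against 25% by definition. The interval of both shares includes the background share. Scores of 3 and above made up 15.2% of the window and 12.1% of the list, those of 2 to 3 made up 24.2% and 17.5%, those of 0.6 to 2 made up 21.2% and 34.6%, and those under 0.6 made up 39.4% and 35.8%. These ranges were chosen after the scores were seen.

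Clusters of the complex were of ordinary width for the list. Their median was 2129 bp against 2202 bp elsewhere, at percentile 43.1 of the other clusters, and the widest, at 3678 bp, was at percentile 85.0. The 11 in the top 25% by score had a median width of 2572 bp, against 3172 bp for the 1608 such clusters elsewhere. Set against clusters within 0.2 score units of their own score, 20 of the 33 were narrower than the median, with percentiles of width from 3.31 to 83.5 and a median percentile of 40.5. These were 14 of the 20 clusters scoring 0.6 or more and 6 of the 13 scoring less. The promoter-end cluster of Ubx, at 2238 bp, was wider than 3.31% of the 423 clusters of like score, and those from 12701503 and 12743742 were wider than 5.11% and 6.31%. At the other end, the Ubx cluster from 12543445 was at percentile 75.6 and the one from 12674832 at 74.6, and the weak clusters from 12667924 and 12573860 were at 83.5 and 83.2. Width followed score within the window, with a Spearman's rho of 0.912 across its 33 clusters and 0.794 across the rest of the list, and the caller's way of setting widths is not given in the sources used here.

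**Figure D5:**
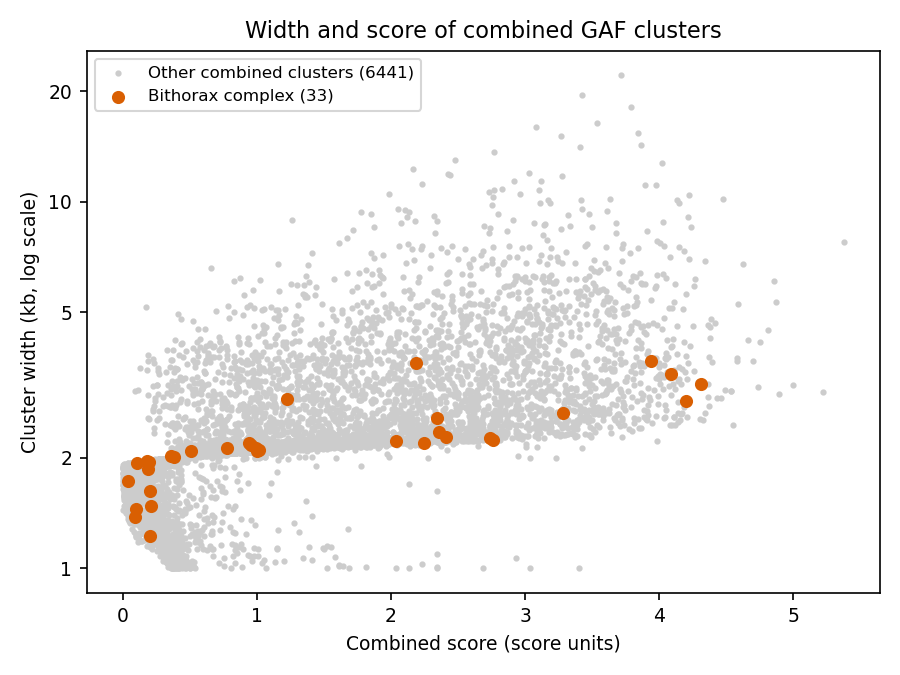
Width in kb (log scale) against score of the combined clusters, with the 33 of the Bithorax complex in orange and the 6441 others in grey. Clusters of the complex lie between 1226 and 3678 bp. Those from 12559166, 12701503 and 12743742, with scores of 2.25 to 2.76, lie near the lower edge of the grey cloud.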

How the data were processed

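GAF ChIP-seq libraries of whole embryos were aligned with Bowtie 0.12.7, per the submitters' processing notes; coordinates are on FlyBase release 5, per the file headers. The authors deposited 1 region list for each ChIP replicate and 1 combined list. Each region has a signed score, deposited with no stated scale, so scores were compared by rank or difference and no fold was taken. The sources used here do not give the region caller, its thresholds or how replicates were combined. No read counts are given, so depth is unknown.

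Clusters were regions with a score above 0 overlapping the window. Overlap meant at least 1 bp. A cluster belonged to the segment holding its midpoint. Gene spans were approximate, at 79.0 kb for Ubx, 24.0 kb for abd-A and 46.0 kb for Abd-B. Genes between and beyond them are named by their order in the RefSeq release 6 table, with no coordinates converted. Shares carry exact (Clopper-Pearson) 95% intervals. With 1 condition and 2 replicates no test was made. Every combined cluster is accounted for, with full values for the 8 highest in score, the 3 widest, those at promoter ends and those not in both replicates. The planned motif description of promoters was not made, and input libraries were not analysed. Routines were tested on simulated regions. Python 3.11.15, numpy 2.4.6 and scipy 1.17.1 were used. The members and the analyses were chosen with earlier results of these data known.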

Additional observations from a re-analysis of the deposited data

Results flagged for a closer look

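One region of the window lies outside the comparisons above because its score is below 0. The combined list has 210 regions with a score below 0, called depleted here by that sign alone. The 1 in the window lies between abd-A and Abd-B, from 12707554 to 12709089, with a score of -0.0764. Neither replicate has a cluster there, and neither lists a depleted region in the window.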

How the results depend on the processing

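Of 56 alternative values, 36 stayed within 1.5 times the count, or within the replicate spread or the interval of the reported value, and 20 moved. No paired analysis was possible because the inputs, the only samples that share replicate numbers with the ChIP libraries, were not analysed. Dropping each list's lower-scoring clusters, those under its median, left 14 clusters in the window, 10.99% of it covered and a median score of 2.57, and by segment 0 below Ubx, 3 in Ubx, 1 between Ubx and abd-A, 2 in abd-A, 5 between abd-A and Abd-B, 2 in Abd-B and 1 above it. With that minimum, overlap with the other replicate was 100% from replicate 2 and 92.9% from replicate 1. Using 1 replicate list alone gave a covered share of 18.2 to 19.1%, a median score of 1.25 to 1.32, 3 to 4 clusters in Abd-B, and 1 in either above Abd-B. Widening the gene spans by 2 kb left 1 cluster below Ubx. Shifting the grid by 0.5 windows moved the rank in covered share from 44 to 36. Requiring a reciprocal overlap of 50% gave the same counts of shared clusters. The lists hold no depth, so the lower limit of detection is not known.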

Other observations

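All 5 of the strongest clusters of the window scored higher in replicate 2, by 0.0821 to 0.342 score units. Elsewhere, replicate 2 was higher at 44.6% of the 652 pairs with a mean score above the same limit of 3.14. This comparison was chosen after the scores were seen, and no test was made.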
